A study of Rattus norvegicus with 8 samples.

Results

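Voltage-gated calcium channels open when a membrane depolarises and let calcium into the cell. The α1 subunit forms the pore and sets the current type, while the α2δ and β subunits are auxiliary and control how many channels reach the membrane and how they open. In amygdala neurons these channels drive transmitter release, shape firing and carry the calcium signals used in synaptic plasticity. Described here are 10 genes of this family: 8 α1 genes (Cacna1a, Cacna1b, Cacna1c, Cacna1d, Cacna1e, Cacna1g, Cacna1h and Cacna1i), the α2δ gene Cacna2d1 and the β gene Cacnb4. Every probe set annotated to one of these symbols alone was taken, which gave 20 of the 31042 probe sets on the Affymetrix rat array that are not controls.

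The tissue was the basolateral amygdala of rats, its lateral and basal nuclei cut out with a laser on the ipsilateral side, and RNA from each rat went through 2 rounds of amplification. Control rats were operated but not stimulated, and epileptogenic rats went through status epilepticus, a prolonged seizure started by amygdala stimulation, and had no spontaneous seizures afterwards. After 5 habituation sessions all rats were trained on day 8 after stimulation, with 2 presentations each of a footshock of 1.5 mA lasting 1 s and a tone of 75 dB lasting 20 s. In paired training the shock and the tone ended together, in unpaired training the shock came first, and tissue was taken 3 h later. Control and epileptogenic rats, each with paired or unpaired training, make 4 groups of 2 arrays, called A and B, and each array holds amplified RNA pooled from 2 rats, 16 rats in all. No group was left without tone and shock, and strain, sex and age are not given in the sources used here.

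Values are log2 of the deposited signal. Median signals of the 8 arrays ran from 29.0 to 43.2. A probe set was tested with limma, a linear model with moderated variances, where its mean log2 signal over the 8 arrays exceeded 4.35 (the filter level, the 40th percentile). This left 18625 probe sets, and adjusted p-values refer to all of them (Benjamini-Hochberg, called under 0.05). Arrays of the same letter deviated together (correlations of 0.321 to 0.407 between groups, across probe sets), so the letter was also entered as a block. What the letters stand for is not given in the sources used here. Of 9 measured excitatory neuron genes, 8 were above the filter level on average. Their mean log2 signals in control arrays ran from 5.43 (Slc17a7) to 10.2 (Lmo3), with Neurod6 at 8.34. The excitatory transcription factor gene Tbr1 was under the filter level (3.77). Of 9 measured genes typical of the neighbouring striatum and central amygdala, 8 were above the filter level on average. Their control means ran from 6.02 (Drd2) to 10.95 (Penk), and Tac1 was under the filter level at 4.24.

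Of the 20 calcium channel probe sets, 8 were above the filter level on average and were tested. They represent 6 genes: Cacna1a (3 of its 5 probe sets), Cacna1b (1 of 2), Cacna1c (1 of 2), Cacna1d (1 of 3), Cacna1h (1 of 2) and Cacna2d1 (its only one). Of these 8, 5 exceeded the filter level on every array. The remaining 12 probe sets were too dim, among them every probe set of Cacna1e, Cacna1g, Cacna1i and Cacnb4. Of the 12, 6 were under the filter level on all 8 arrays, and the other 6 exceeded it on 1 to 4 arrays.

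RefSeq promoter windows (rat build GRCr8, from 250 bases before to 50 bases after the annotated start) were available for 6 of the 10 genes. Those of 3 genes are printed, chosen with their array values known: Cacna2d1, the one member called as lower once the letter was a block; Cacna1a, whose brightest probe set separated the groups; and Cacna1c, whose arrays lay closest together. The motif counts of all 6 follow, since a choice of 3 cannot show a relation between promoter and signal. Capitals mark the GC box GGGCGG, a motif bound by Sp-family factors, on either strand. The windows are chr4:20330098-20330397 for Cacna2d1, chr19:40650419-40650718 for Cacna1a and chr4:154051699-154051998 for Cacna1c, all on the minus strand and written 5′ to 3′ along the gene.
Cacna2d1: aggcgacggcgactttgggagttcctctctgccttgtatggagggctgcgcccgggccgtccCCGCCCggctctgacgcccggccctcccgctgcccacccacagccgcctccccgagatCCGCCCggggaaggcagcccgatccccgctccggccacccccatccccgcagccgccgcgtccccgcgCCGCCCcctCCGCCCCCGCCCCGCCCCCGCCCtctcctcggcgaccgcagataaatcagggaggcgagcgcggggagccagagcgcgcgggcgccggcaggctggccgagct
Cacna1a: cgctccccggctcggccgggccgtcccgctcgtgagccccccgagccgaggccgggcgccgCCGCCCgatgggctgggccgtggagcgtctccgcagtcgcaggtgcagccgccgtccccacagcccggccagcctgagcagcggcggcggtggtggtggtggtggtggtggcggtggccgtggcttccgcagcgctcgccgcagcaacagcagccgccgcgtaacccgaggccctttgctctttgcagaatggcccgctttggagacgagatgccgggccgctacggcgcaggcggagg
Cacna1c: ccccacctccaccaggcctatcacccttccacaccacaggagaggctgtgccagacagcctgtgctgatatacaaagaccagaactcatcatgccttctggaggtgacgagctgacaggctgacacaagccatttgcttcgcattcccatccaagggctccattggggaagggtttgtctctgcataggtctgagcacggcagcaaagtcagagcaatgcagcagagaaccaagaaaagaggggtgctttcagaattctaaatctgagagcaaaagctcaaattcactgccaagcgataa
The Cacna2d1 window held 7 GC boxes, some overlapping, with a GC content of 78.3% and 41 CpG dinucleotides. The Cacna1a window held 1 GC box, with 76% GC and 41 CpGs. No GC box was found in the Cacna1c window, which had 51.7% GC and 4 CpGs, against a median of 51.7% GC and 7 CpGs over all 33469 windows in the table. Of the windows not printed, that of Cacna1d held 10 GC boxes, with 88.7% GC and 66 CpGs, that of Cacna1b held 3, and that of Cacna1e none. Cacna1d, with 10 GC boxes, differed by -0.23 ± 0.43 between epileptogenic and control rats (log2, SE; limma adjusted p = 0.827). This estimate was too imprecise to rank the gene by its difference, so a relation to the number of GC boxes was not tested. At least 1 GC box was present in 33.1% of all windows. Searches on both strands for a cyclic AMP response element (TGACGTCA, in 1.83% of all windows), an AP-1 site (TGACTCA, 4.63%), an EGR site (GCGTGGGCG, 0.544%) and a TATA box (TATAAA, 14.2%) found no match in any window of the 6 genes. Cacna2d1 has 3 partly overlapping windows in the table, for separate annotated starts, and the one printed begins farthest upstream. The other windows of this gene held 3 GC boxes each.

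The comparison of 4 epileptogenic with 4 control arrays asks which transcripts differ in the days after status epilepticus. All 8 tested calcium channel probe sets had a lower mean in epileptogenic rats, but none passed the test without the letter as a block, and with the block Cacna2d1 alone fell. Their log2 differences ranged from -1.25 to -0.23 with a median of -0.41, beside a median of -0.11 over all tested probe sets, 60.2% of which were below 0. Across the series 3.63% of tested probe sets were called in either direction, 0.827% as lower. With the letter as a block 16.2% were called, 8.65% as lower, so the 1 of 8 calcium channel probe sets called then is a share near the background. At an unadjusted p under 0.05, 2 of the 8 were lower without the block (Cacna2d1 and the brightest probe set of Cacna1a). Over all 18625 tested probe sets, 3429 had such a p in limma, in either direction. How many of these were lower was not counted, so the 2 of 8 cannot be compared with a like share.

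**Figure D1:**
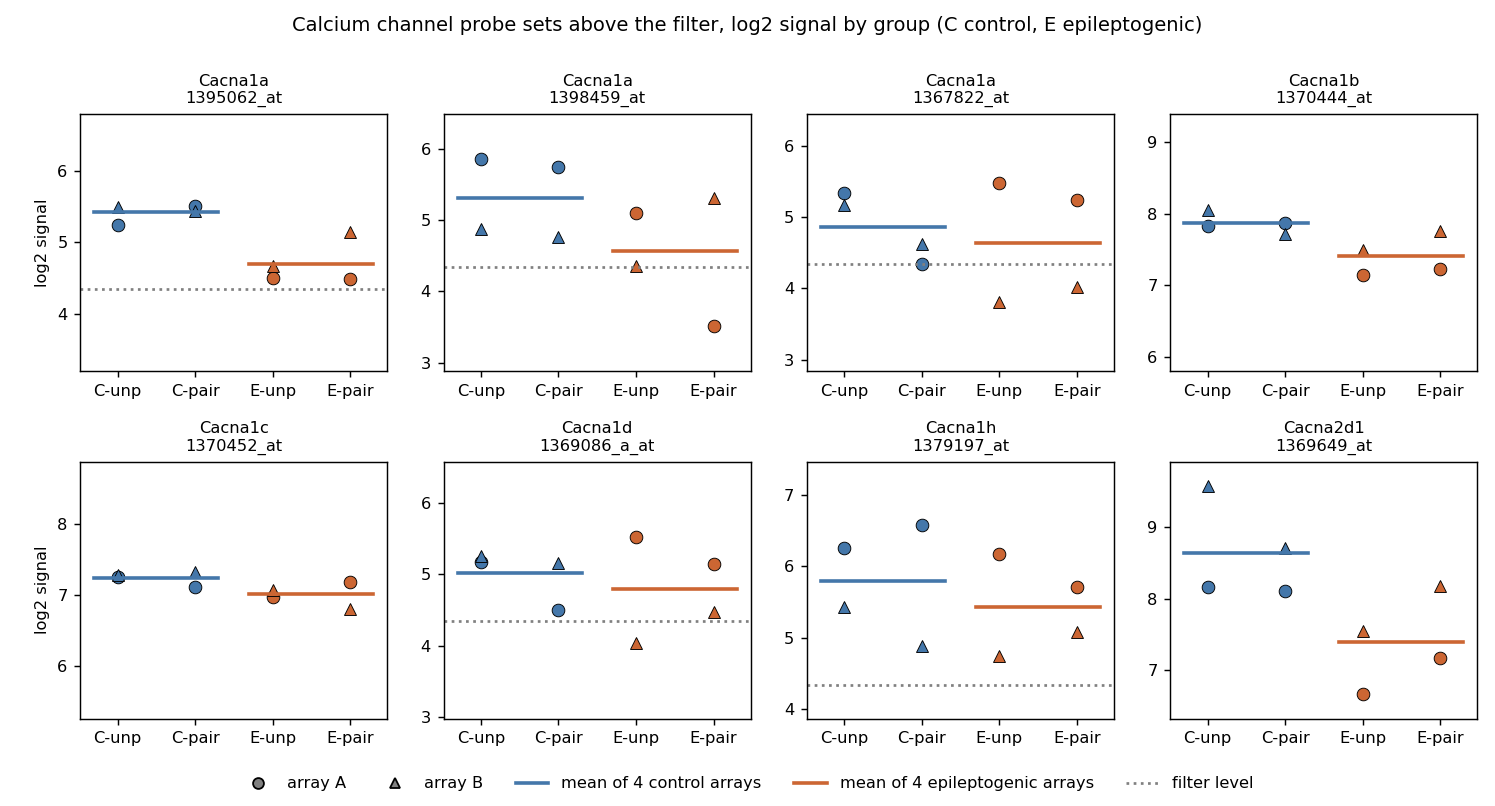
Log2 signal of the 8 calcium channel probe sets above the filter, by group (C control, E epileptogenic; unp unpaired, pair paired); circles are arrays A, triangles arrays B, lines the means of 4 arrays, and the dotted line is the filter level of 4.35. Each panel spans the same number of log2 units on its own axis. Cacna2d1 (mean 8.64 in control and 7.39 in epileptogenic arrays) shows the widest gap, and its B arrays lie above its A arrays in every group.

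Among the pore-forming genes, Cacna1a encodes the channel of P/Q-type currents, which trigger transmitter release at many central synapses. Its brightest probe set (1395062_at) read 5.25 and 5.50 on the control unpaired arrays A and B and 5.51 and 5.44 on the control paired arrays. On the epileptogenic arrays it read 4.49 and 4.67 after unpaired and 4.48 and 5.14 after paired training. The groups did not overlap, with all 4 epileptogenic arrays under all 4 control arrays (4.70 ± 0.31 against 5.42 ± 0.12, SD, n = 4). Such complete separation downward was seen in 7.77% of all tested probe sets, and among the 8 calcium channel probe sets in this 1. The log2 difference of -0.73 ± 0.32 (SE; 95% interval -1.44 to -0.01) did not pass in limma (adjusted p = 0.262; 0.121 with the block).

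The other probe sets of Cacna1a did not all follow it. Probe set 1398459_at differed by -0.74 ± 0.50 (log2, SE; limma adjusted p = 0.475), with one epileptogenic array at 3.52 and another at 5.31. For 1367822_at the difference was -0.23 ± 0.48, and it was 0.52 within the A arrays and -0.98 within the B arrays. The 2 dim probe sets of the gene, 1367821_a_at and 1386939_a_at, read without the filter, differed by -0.99 ± 0.71 and 0.40 ± 0.79. Within this gene only 1395062_at therefore had groups that did not overlap, and probe sets of 1 gene share their transcript and are not replicates.

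Cacna1b encodes the pore of N-type channels, which also serve transmitter release. Its bright probe set (1370444_at) read 7.82 and 8.06 in control unpaired, 7.87 and 7.72 in control paired, 7.14 and 7.50 in epileptogenic unpaired and 7.22 and 7.76 in epileptogenic paired arrays. Only 1 epileptogenic array, paired B, reached into the control range. The log2 difference was -0.46 ± 0.21 (SE; 95% interval -0.94 to 0.02; limma adjusted p = 0.288, 0.0786 with the block), and it was -0.67 within the A arrays and -0.26 within the B arrays. The dim second probe set of the gene, 1371175_a_at, varied between -0.25 and 4.57 over the 8 arrays and had a wide 95% interval without the filter (-3.71 to 1.26).

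The L-type genes, Cacna1c and Cacna1d, encode channels that couple depolarisation to calcium-dependent gene expression. Cacna1c (1370452_at) had the narrowest spread of the tested members, with control arrays between 7.11 and 7.33 and epileptogenic arrays between 6.81 and 7.18. Its log2 difference was -0.23 ± 0.20 (SE; limma adjusted p = 0.589). The 95% interval of -0.68 to 0.22 bounds a fall or rise that these arrays could have missed. For Cacna1d the brightest probe set (1369086_a_at) read between 4.50 and 5.26 in control and between 4.04 and 5.52 in epileptogenic arrays. That epileptogenic range enclosed the whole control range. The difference of -0.23 ± 0.43 (adjusted p = 0.827) changed sign between letters, at 0.50 within the A arrays and -0.95 within the B arrays. Of its dim probe sets, 1370637_at was at 4.14 to 4.66 in all control arrays and at 4.01, 1.85, 5.24 and 2.82 in the epileptogenic arrays. Its log2 difference without the filter was -0.97 ± 0.70 (SE). The other, 1370640_a_at, differed by -0.30 ± 1.31, with -3.64 within the A arrays and 3.04 within the B arrays.

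The genes of T-type channels, which open near rest and support burst firing, are Cacna1g, Cacna1h and Cacna1i. Cacna1h was the only one of them above the filter level. Its B arrays lay under its A arrays in all 4 groups, with log2 differences of B minus A from -1.70 to -0.62. Within the A arrays it read 6.26 and 6.59 in control and 6.17 and 5.71 in epileptogenic rats, and within the B arrays 5.43 and 4.89 against 4.75 and 5.09. The log2 difference was -0.36 ± 0.47 (SE; limma adjusted p = 0.737), and the block narrowed its 95% interval from -1.41 to 0.69 to one from -0.94 to 0.22 without a call. Its dim probe set 1368398_at differed by -0.75 ± 0.74 without the filter, and the sign was not the same in both letters (-1.97 within the A arrays, 0.46 within the B arrays).

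Cacna1g read 5.21 and 4.57 in control unpaired arrays and 3.43 and 2.19 in control paired arrays. In epileptogenic rats it read 2.86 and 2.58 after unpaired and 1.83 and 1.93 after paired training. It exceeded the filter level only in the 2 control unpaired arrays, and control paired B lay within the epileptogenic range. Fitted without the filter, its log2 difference was -1.55 ± 0.65 (SE; limma adjusted p = 0.325, 0.187 with the block). Cacna1i was dim as well, and its 2 probe sets, 1369211_at and 1370641_s_at, pointed opposite ways (-0.83 ± 0.80 and 0.78 ± 0.79 without the filter). Cacna1e, which encodes the pore of R-type channels, was under the filter level on all 8 arrays (1.69 to 4.12), at 0.26 ± 0.72 without the filter.

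Among the auxiliary subunits, Cacna2d1 had the widest gap of the 8 tested probe sets. Cacna2d1 encodes the α2δ subunit that gabapentin and related drugs bind, which promotes the trafficking of channels to presynaptic terminals. Its probe set (1369649_at) read 8.16 and 9.58 in control unpaired, 8.11 and 8.71 in control paired, 6.66 and 7.55 in epileptogenic unpaired and 7.17 and 8.18 in epileptogenic paired arrays. The groups overlapped only because epileptogenic paired B was slightly above both control A arrays. Within each letter both epileptogenic arrays lay under both control arrays. How many of all tested probe sets were ordered in this way was not counted, so the order is not shown to be particular to this gene. B exceeded A in all 4 groups, by 0.60 to 1.42.

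The mean of Cacna2d1 was 7.39 ± 0.64 in epileptogenic and 8.64 ± 0.68 in control arrays (log2, SD, n = 4), a 2.38-fold lower signal. The log2 difference of -1.25 ± 0.38 (SE; 95% interval -2.10 to -0.40) did not pass in limma without the block (adjusted p = 0.113). With the letter as a block the same difference had an SE of 0.16 (95% interval -1.61 to -0.89) and passed (adjusted p = 0.00111). It was -1.22 within the A arrays and -1.28 within the B arrays. With single arrays left out and no block, it ranged from -1.61 to -0.90 and passed in none of the 8 fits (adjusted p from 0.0609 to 0.283).

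Cacnb4 encodes a β subunit, and its loss in the lethargic mouse causes ataxia and absence-like seizures. It was under the filter level on all 8 arrays and was not tested. Control arrays read 4.34, 4.29, 3.89 and 3.87, and epileptogenic arrays 3.24 and 2.65 after unpaired and -0.18 and 3.25 after paired training. All 4 epileptogenic arrays were under all 4 controls, which was the case for 2.13% of the probe sets too dim to test. The largest part of the mean gap came from epileptogenic paired A at -0.18. Without the filter the log2 difference was -1.86 ± 0.80 (SE; limma adjusted p = 0.341, 0.193 with the block).

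**Figure D2:**
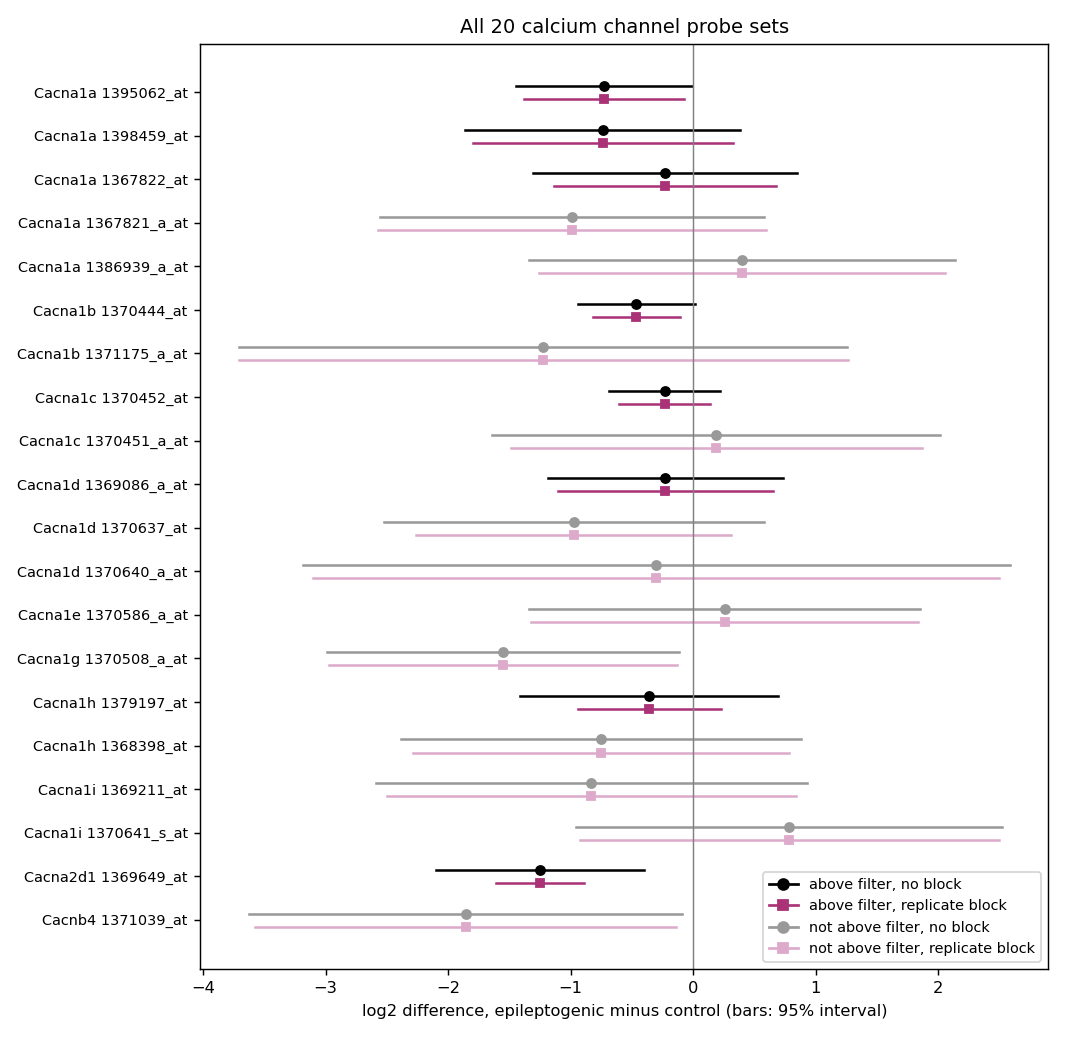
Log2 difference between epileptogenic and control rats for all 20 calcium channel probe sets, with 95% intervals from limma; circles are fits without and squares with the replicate letter as a block, and pale marks are probe sets not above the filter, fitted without it. Of the 20 estimates 16 are below 0, all 8 tested and 8 of the 12 not tested, beside 59.1% of all 31042 probe sets fitted without the filter. Probe sets of the same gene share its transcript, so the estimates are not independent. The interval of Cacna2d1 narrows most among the tested probe sets, from -2.10 to -0.40 without the block to -1.61 to -0.89 with it.

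The training comparison asks whether pairing the tone with the shock altered the same transcripts. Over all rats, none of the 8 tested calcium channel probe sets differed between paired and unpaired training (limma; 0 called with or without the block, 0 at an unadjusted p under 0.05), beside 0% of all tested probe sets called. Without the block, 214 of all 18625 tested probe sets had an unadjusted p under 0.05. The log2 differences of the 8 calcium channel probe sets ran from -0.39 to 0.16. The tightest bound was that of Cacna1c, whose 95% interval was -0.49 to 0.41, and the loosest that of the Cacna1a probe set 1398459_at, from -1.33 to 0.92. Cacna1g, not tested, read lower after paired than after unpaired training in both control and epileptogenic rats (-1.46 ± 0.65 without the filter, SE; adjusted p = 1.00). A dim probe set of Cacna1c (1370451_a_at) differed by -2.57 ± 0.83 without the filter (unadjusted p = 0.0103, adjusted p = 1.00), with values from -0.13 to 3.83, all under the filter level.

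Whether training acted differently after status epilepticus was tested by the interaction. None of the 8 probe sets passed (limma, 0 at an unadjusted p under 0.05 without the block), beside 0% of all tested probe sets. Without the block, 274 of all 18625 tested probe sets had an unadjusted p under 0.05. For Cacna2d1 the paired minus unpaired difference was -0.46 ± 0.53 (log2, SE) in control and 0.57 ± 0.53 in epileptogenic rats. The interaction was 1.03 ± 0.76 (95% interval -0.67 to 2.73; adjusted p = 1.00), and with the block its unadjusted p was 0.00993 and its adjusted p 0.868. The gap between epileptogenic and control rats in this gene was -1.76 ± 0.53 after unpaired training (adjusted p = 0.222, 0.00365 with the block) and -0.74 ± 0.53 after paired training (adjusted p = 0.740, 0.104 with the block). As the interaction did not pass, these gaps are not shown to differ. After unpaired training 0.317% of all tested probe sets were called, and 7.01% with the block (3.61% as lower). After paired training the shares were 0.532% and 4.62%. All 7 of the other tested probe sets stayed without a call in both trainings, with or without the block.

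**Figure D3:**
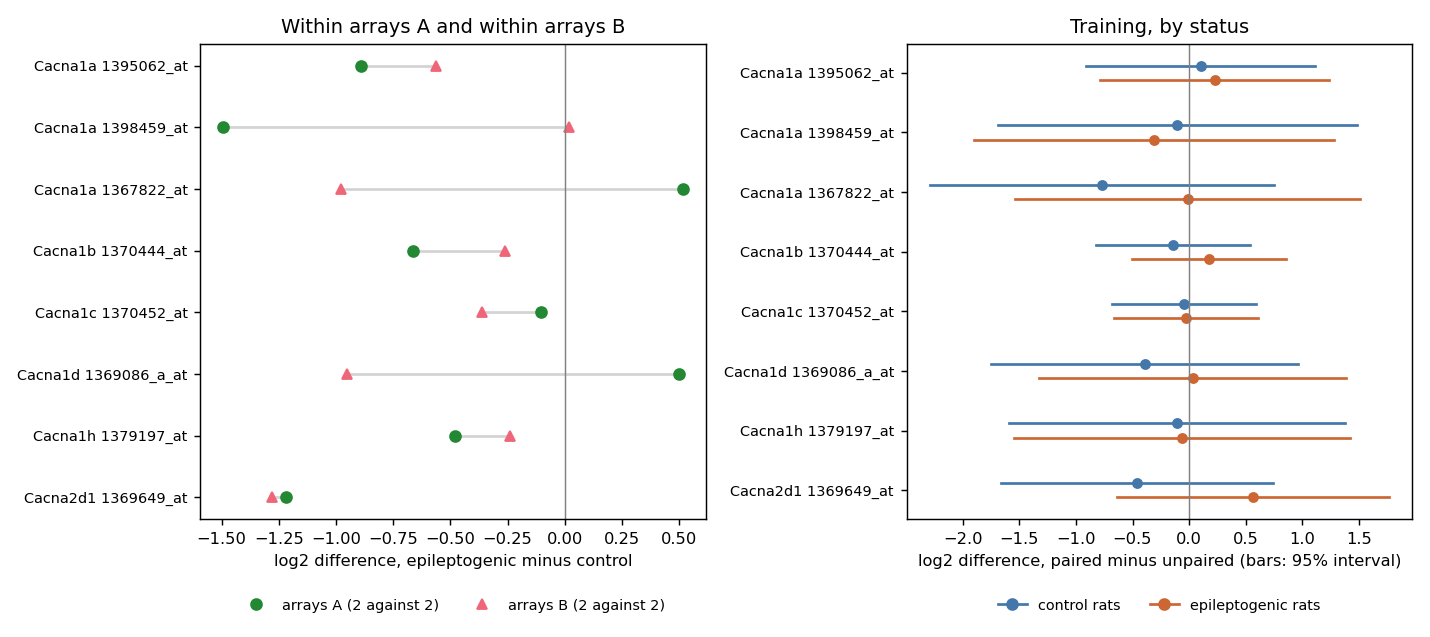
Left, log2 difference between epileptogenic and control rats within arrays A and within arrays B for the 8 tested probe sets; right, paired minus unpaired difference in control and in epileptogenic rats with 95% intervals from limma. Within letters Cacna2d1 stays at -1.22 and -1.28, while Cacna1d and 2 probe sets of Cacna1a change sign; on the right every interval includes 0.

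Other genes of the channel family and its calcium pathway were read by their brightest probe set, in lists chosen with earlier results of these data known. Of 16 other channel subunit genes, 14 had a probe set and 5 were tested. None was called without the block, and Cacna2d3 and Cacnb2 fell with it, beside 8.65% of all tested probe sets called as lower with the block. Cacna2d3, a further α2δ gene, was at 7.15 ± 0.14 in epileptogenic and 7.85 ± 0.22 in control arrays (log2, SD, n = 4), a difference of -0.70 ± 0.21 (SE; limma adjusted p = 0.109, 0.0132 with the block). Cacnb2, a further β gene, was at 7.13 ± 0.27 and 7.86 ± 0.37, a difference of -0.73 ± 0.22 (adjusted p = 0.118, 0.0140 with the block). In both genes all epileptogenic arrays lay under all control arrays, as in 7.77% of all tested probe sets. The remaining tested genes were Cacnb1 (-0.11 ± 0.42), Cacnb3 (-0.28 ± 0.52) and Cacng2 (-0.46 ± 0.39), which encodes stargazin, better known as an AMPA receptor partner. The skeletal muscle gene Cacna1s read 0.69 in control and 0.71 in epileptogenic arrays, far under the filter level.

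Genes of the wider pathway were counted in the same way, beside 0.827% of all tested probe sets called as lower without the block and 8.65% with it. Among 13 tested channel partners and regulators 1 fell (6 fell and 1 rose with the block; median -0.51). It was Dpp10, an auxiliary subunit of A-type potassium channels, at -0.86 ± 0.19 (log2, SE; limma adjusted p = 0.0447). Among 18 pumps, exchangers and store channels 1 fell (5 with the block; median -0.27), the ryanodine receptor gene Ryr2, which releases calcium from stores, at -1.02 ± 0.18 (adjusted p = 0.0180). Of 18 calcium effectors and buffers 2 fell (9 with the block; median -0.50): Calb2, which encodes the calcium-binding protein calretinin, at -1.34 ± 0.24 (adjusted p = 0.0192), and Vsnl1, a neuronal calcium sensor gene, at -0.76 ± 0.17 (adjusted p = 0.0407). Without the block, leaving out 1 array ended the call of Dpp10 in all 8 fits, of Ryr2 in 5, of Calb2 in 6 and of Vsnl1 in 7 of them.

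Markers of cell types moved with these differences. All 11 tested neuron markers had lower means in epileptogenic rats (median log2 difference -0.56; 0 called without and 6 with the block). Their summed level per array, as a mean relative to controls, ran from -0.72 to -0.38 in epileptogenic and from -0.06 to 0.04 in control arrays. For the 6 calcium channel genes tested the same mean ran from -0.73 to -0.42 and from -0.12 to 0.19. Excitatory neuron markers were lower still (median -1.08; 3 of 8 fell, 6 with the block), at -1.16 to -0.79 in epileptogenic and -0.13 to 0.19 in control arrays. The interneuron marker means overlapped, at -0.83 to -0.06 and -0.18 to 0.29, and 1 of 7 fell with or without the block. That gene was Calb2. Calb2 and the excitatory marker Camk2a are also in the list of calcium effectors and buffers. The neuron marker Snap25 is also among the channel partners and regulators, so these counts share genes. Microglial and macrophage markers were higher (9 of 11 rose, 10 with the block; 1.75 to 2.37 against -0.59 to 0.26), as were astrocyte markers (3 of 8 rose, 4 with the block; 0.72 to 1.00 against -0.37 to 0.45). Oligodendrocyte markers ran from 0.25 to 1.33 against -0.06 to 0.06 (1 of 8 rose, 4 with the block), and endothelial markers from 0.17 to 0.40 against -0.21 to 0.16 (0 of 7 called in limma without the block, 1 higher with it). Striatal and central amygdala markers overlapped between the groups (-0.96 to 0.65 against -0.21 to 0.45; 0 of 8 called without the block, 1 higher with it). Their mean was higher on array A than on array B in every group. In epileptogenic rats it was 0.53 and -0.96 after unpaired and 0.65 and -0.16 after paired training. In control rats it was 0.45 and -0.05 after unpaired and -0.19 and -0.21 after paired training. Why the letters differed was not tested. In these pooled tissue samples fewer neurons and less calcium channel RNA per neuron cannot be told apart, and the part of cell composition in the lower signals was not tested.

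**Figure D4:**
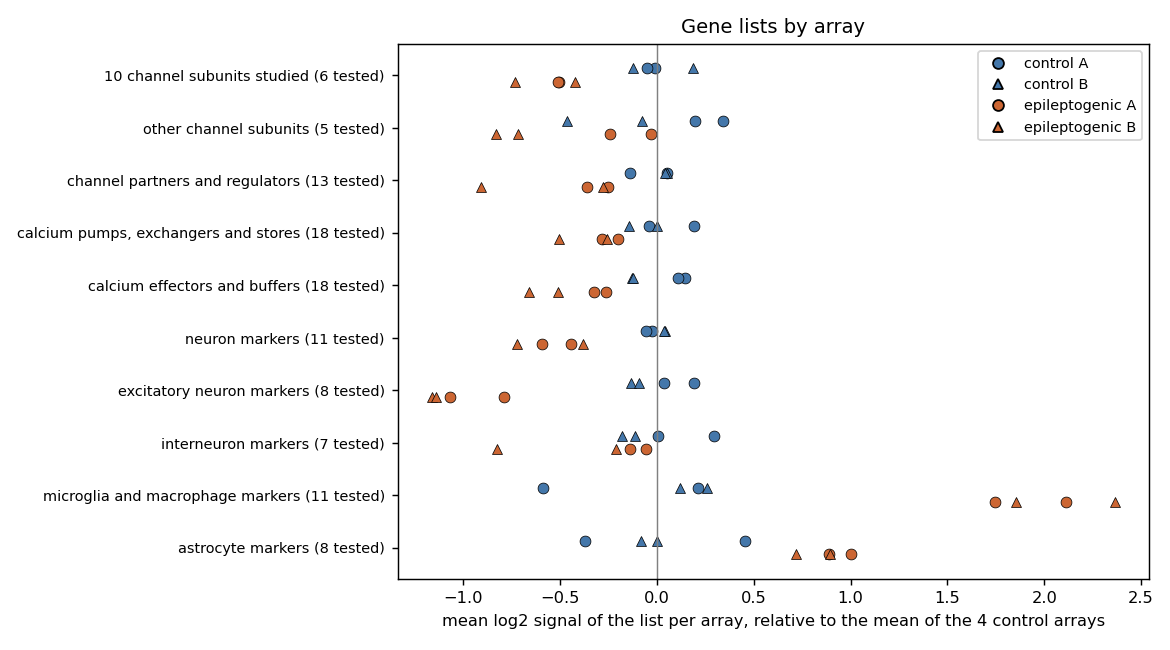
Mean log2 signal of each gene list per array, relative to the mean of the 4 control arrays; circles are arrays A and triangles arrays B. The calcium channel genes lie between -0.73 and -0.42 in epileptogenic arrays, close to the range of the neuron markers (-0.72 to -0.38), while microglial markers lie between 1.75 and 2.37.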

How the data were processed

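RNA was measured on 8 Affymetrix Rat Genome 230 2.0 arrays, 2 in each of 4 groups taken from the sample titles. The deposited values are signal intensities on a linear scale; MAS5 is named in the submitters' processing notes, with version and scaling target not given in the sources used here. The log2 of each signal was taken as it stood, and 57 control probe sets were dropped. Of the rest, 20826 carried a single symbol in the platform annotation.

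A fit of 4 group means in limma 3.58.1 (R 4.3.3), with prior variances that follow mean intensity and two-sided tests, gave 7 comparisons over 18625 probe sets. Standard errors and 95% intervals come from this fit. Its p-values set a difference against the moderated spread between arrays of pooled rats. In the fit with the block, arrays of the same letter were treated as matched. This pairing was inferred from these data, where deviations from group means correlated above 0.1 in all 6 pairs of groups. The fit without the block was tested on simulated data in which all arrays varied independently. Deviations shared by a letter were not simulated, and the fit with the block was not tested in this way.

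The members, gene lists and tests were chosen with earlier results of these data known. All members were named with every probe set; of each pathway list at most 4 called genes were named, and of the other subunits any measured gene. The alternatives tried were median centring, quantile normalization, an offset of 16 before the logarithm, no filter, a filter at the 60th percentile, no intensity trend, array weights, the letter as a block, gene means over probe sets, values within letters, and leaving out each array. Python 3.11.15 and matplotlib 3.10.9 drew the figures.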

Additional observations from a re-analysis of the deposited data

Results flagged for a closer look

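One sample stood apart from its group. In control rats the brightest probe set of Cacna1d (1369086_a_at) read 4.50 on the paired A array, while the other 3 control arrays lay between 5.15 and 5.26, so that the gap took 0.857 of the whole range, more than Dixon's 95% critical value for 4 samples. This was 1 of 40 sets of 4 arrays examined, and chance alone flags about 1 in 20.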

How the results depend on the processing

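Without the replicate letter as a block no calcium channel probe set was called in any of the 7 comparisons, under any alternative in normalization, offset, filter, trend or array weights or with any single array left out (0 in each of these fits). With the replicate block 1 was called in epileptogenic against control rats and 1 after unpaired training, Cacna2d1 in both, and the block changed no other call among the 8 tested probe sets. In 3 of the comparisons (epileptogenic against control, training and interaction) 397 log2 differences of the tested probe sets were recomputed. Of these, 347 kept their direction and their side of the threshold, 49 changed sign with no call on either side, and 1 passed, that of Cacna2d1 with the block in epileptogenic against control rats. Changing only the filter, the intensity trend, the array weights or the block cannot move a log2 difference in this design. Those fits could change a call but not a direction, so their kept directions carry no information. In epileptogenic against control rats 7 changed sign: 4 with an array left out (2 for the Cacna1a probe set 1367822_at and 1 each for Cacna1d and Cacna1h) and 3 within a letter. Over all probe sets the count of 677 called fell to 330 without the intensity trend and to between 224 and 435 with 1 array left out, and rose to 3022 with the replicate block; the cause was not tested. With an array left out, the lone array of its group is assumed to vary like the others. The median log2 difference of all tested probe sets was -0.11 as deposited, -0.05 after quantile normalization and -0.08 after median centring, and the 8 calcium channel differences stayed below 0 under both scalings, but quantile normalization moved Cacna1d from -0.23 to -0.08 and the Cacna1a probe set 1367822_at from -0.23 to -0.09. Averaging a gene's probe sets left 4 of the 10 genes above the filter and called none, yet moved values: in epileptogenic against control rats Cacna1b went from -0.46 to -0.84, Cacna1c from -0.23 to -0.02 and Cacna1h from -0.36 to -0.56, and in training Cacna1c went from -0.04 to -1.30 (unadjusted p = 0.0118, limma adjusted p = 1.00). The number of arrays and the dim signals of 12 of the 20 probe sets limit the precision.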
